A study of Mus musculus with 38 samples.

Results

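The levels of 10 genes that astrocytes are known to raise when they become reactive were followed in the hippocampus of 38 mice. They are Gfap, Vim, Serpina3n, Osmr, Cd44, Lcn2, Stat3, S100a6, Timp1 and Cp, and they were listed by name as genes of this cell state. These genes and the other gene lists used below were chosen with earlier results of these data known. Shares of list genes set against shares of all genes are therefore a description and not independent support. All 10 of 10 symbols were matched by Ensembl identifier among the 48709 genes of each count file. APPPS1ΔE9 mice, which the labels call APPdelta9, and wild-type (WT) mice, all on a C57BL/6 background, received either a chow with the small molecule anle138b or a placebo chow. APPPS1ΔE9 mice carry APP with the Swedish mutation and a presenilin 1 form without exon 9, transgenes that in this line are driven by the mouse prion protein promoter. The pre-plaque cohort was treated from 2 months of age and analyzed at 6 months, and it held 4 WT placebo, 4 WT anle138b, 4 APPPS1ΔE9 placebo and 4 APPPS1ΔE9 anle138b mice. The post-plaque cohort was treated from 6 months of age and analyzed at 10 months, and it held 5 WT placebo, 5 WT anle138b, 5 APPPS1ΔE9 placebo and 7 APPPS1ΔE9 anle138b mice.

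Astrocytes answer injury, infection and amyloid deposits by enlarging their processes and by switching on a set of genes, a state called reactive astrogliosis. Part of this response runs through cytokines of the interleukin-6 family, which bind receptors that share the subunit gp130, activate JAK kinases and lead to phosphorylation of the transcription factor STAT3, which enters the nucleus. In amyloid models, reactive astrocytes gather around plaques together with microglia. None of the 10 genes is private to astrocytes, since Vim, Cd44, S100a6, Timp1 and Stat3 are also used by vascular, meningeal, immune and dividing cells.

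Sequencing depth was between 15847985 and 31895808 counts per mouse. App, which the transgene adds to, was between 1520 and 1810 CPM (counts scaled to library size) in the 18 WT mice and between 3240 and 4320 CPM in the 20 APPPS1ΔE9 mice, so the transgene followed the group of every library. The 4 WT placebo libraries of the pre-plaque cohort are WT by title and APPdelta9 by another label, and their App level was that of WT mice. Xist, the RNA of the inactive X chromosome, was above 100 CPM in 11 of 18 WT and 1 of 20 APPPS1ΔE9 mice, although the methods describe all mice as male. By their titles WT libraries came from lanes 3, 4 and 5 and APPPS1ΔE9 libraries from lanes 5 and 6, and sample numbers repeat on a lane between the cohorts, so a lane was compared only within its cohort. At 10 months no lane held both genotypes, and at 6 months none held both on the same chow, so genotype and lane cannot be told apart in those comparisons, and the Xist signal moved with genotype as well. Fixed markers of resting astrocytes (15 genes, Aqp4 and Aldh1l1 among them) summed to between 7680 and 9710 CPM in every mouse, so the tissue held astrocyte RNA in each library. In RNA from whole tissue, fewer cells of a type and less RNA per cell cannot be told apart.

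Per kilobase of exon, Gfap, an intermediate filament that reactive astrocytes raise, had the highest level of the 10 genes. Its median over the 38 mice was 123 RPKM (reads scaled to exon length and library size). Serpina3n, a secreted serine protease inhibitor, followed at a median of 31.7 RPKM. Vim, another intermediate filament, had a median of 10.9 RPKM and S100a6, a calcium-binding protein, had 9.67 RPKM. The ranges of Vim and S100a6 overlapped, at 6.5 to 18.5 RPKM and 6.23 to 14.7 RPKM once 1 WT mouse described below is set aside. Stat3 had a median of 6.07 RPKM and Cp, the copper-carrying ferroxidase ceruloplasmin, had 1.93 RPKM, without overlap between them. The hyaluronan receptor Cd44 at 0.791 RPKM, the oncostatin M receptor Osmr at 0.691 RPKM and the metalloproteinase inhibitor Timp1 at 0.665 RPKM could not be separated from each other, since their ranges overlapped. Lcn2, the iron-siderophore-binding lipocalin 2, was nearly silent at a median of 0.06 RPKM. It never had more than 11 counts in a library, was at 0 counts in 1 mouse, and did not pass the filter on low counts in any comparison, so 9 of the 10 genes were tested.

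In the mm10 build, whose assembly is GRCm38, Gfap (ENSMUSG00000020932) lies at chr11:102887336-102900912 on the minus strand and Serpina3n (ENSMUSG00000021091) at chr12:104406729-104414329 on the plus strand. S100a6 (ENSMUSG00000001025) lies at chr3:90612882-90624181 on the plus strand, Osmr (ENSMUSG00000022146) at chr15:6813577-6874969 on the minus strand and Vim (ENSMUSG00000026728) at chr2:13573927-13582826 on the plus strand. Stat3 (ENSMUSG00000004040) lies at chr11:100885098-100939540, Cd44 (ENSMUSG00000005087) at chr2:102811141-102901665 and Lcn2 (ENSMUSG00000026822) at chr2:32384633-32388252, all on the minus strand. Cp (ENSMUSG00000003617) lies at chr3:19957054-20009145 on the plus strand. Timp1 (ENSMUSG00000001131) at chrX:20870166-20874735 lies within Syn1 on the opposite strand, an overlap of 4570 bases. Cp shares 13201 bases with Hps3 and Gfap shares 13577 bases with the non-coding Gm26668, each on the opposite strand. These overlaps are of whole gene spans, and the overlap of exons was not computed. The sources used here do not say whether counting used strand. Whether reads of these neighbours entered the counts of Timp1, Cp and Gfap was not tested.

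The promoters of 5 of these genes are shown because Gfap and S100a6 passed the genotype test below, Serpina3n holds a motif match, and Cd44, Timp1 and S100a6 are 3 of the 4 genes that set a single WT mouse apart. Each is the 250 bases upstream of the RefSeq start site in GRCm38.p6, written in the direction of transcription, with matches to the NF-kB motif (GGG, any 3 bases, TTCC) in capitals. They are Gfap at chr11:102897201-102897450 on the minus strand, Serpina3n at chr12:104406458-104406707 on the plus strand, S100a6 at chr3:90612644-90612893 on the plus strand, Cd44 at chr2:102901666-102901915 on the minus strand and Timp1 at chrX:20869916-20870165 on the plus strand.
Gfap: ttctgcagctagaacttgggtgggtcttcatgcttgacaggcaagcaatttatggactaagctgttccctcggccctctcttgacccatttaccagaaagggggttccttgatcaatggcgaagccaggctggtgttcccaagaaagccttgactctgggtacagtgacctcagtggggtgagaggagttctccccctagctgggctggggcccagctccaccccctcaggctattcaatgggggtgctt
Serpina3n: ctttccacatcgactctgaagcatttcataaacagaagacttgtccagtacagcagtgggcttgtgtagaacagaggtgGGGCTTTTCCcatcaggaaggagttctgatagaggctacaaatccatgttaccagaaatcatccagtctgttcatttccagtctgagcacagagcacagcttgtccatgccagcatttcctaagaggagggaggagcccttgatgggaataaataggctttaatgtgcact
S100a6: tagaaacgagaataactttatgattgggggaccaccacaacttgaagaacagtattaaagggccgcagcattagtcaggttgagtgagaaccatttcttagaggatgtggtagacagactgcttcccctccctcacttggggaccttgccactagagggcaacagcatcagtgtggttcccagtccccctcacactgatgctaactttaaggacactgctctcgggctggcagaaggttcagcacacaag
Cd44: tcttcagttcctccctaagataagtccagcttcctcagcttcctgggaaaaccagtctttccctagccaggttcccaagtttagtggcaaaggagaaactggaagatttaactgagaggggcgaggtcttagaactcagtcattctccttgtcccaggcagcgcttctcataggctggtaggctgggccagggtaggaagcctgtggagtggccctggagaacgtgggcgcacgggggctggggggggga
Timp1: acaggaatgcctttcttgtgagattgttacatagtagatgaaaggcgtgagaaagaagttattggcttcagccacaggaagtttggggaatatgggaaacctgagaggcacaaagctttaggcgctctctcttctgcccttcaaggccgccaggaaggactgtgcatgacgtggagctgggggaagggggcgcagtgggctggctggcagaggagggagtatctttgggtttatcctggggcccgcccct

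In all, 4 short motifs were looked for on both strands in these windows. The palindromic STAT letters TTCNNNGAA were in 0 of the 10 genes' windows and in 7.02% of 32851 RefSeq promoters. The AP-1 letters TGANTCA were in 1 of 10, that of Cp, against 6.75% of all promoters. The C/EBP letters TTGCNNAA were in 2 of 10, those of Lcn2 and Cp, against 9.56%. The NF-kB motif was in 2 of 10, starting 171 bases before the start site in Serpina3n and 223 bases before it in Vim, against 4.65%. A match is only a run of letters, and no match says only that these letters are absent from the window.

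The first question was whether the transgenes changed these genes after plaques had formed. Taking the mean of the genotype differences on both chows, 3 of 9 genes tested were higher in APPPS1ΔE9 mice at 10 months and none was lower, at an adjusted p under 0.1 in edgeR's quasi-likelihood test. Of all 17668 genes 1.43% passed in either direction and 1.32% were higher, and 5 of the 9 had an unadjusted p under 0.05, as did 6.84% of all genes. They were Gfap, Osmr and S100a6. The median log2 fold change of the 9 genes was 0.33, against -0.0044 over all genes tested.

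Among the filament genes, Gfap in placebo-treated WT mice was 338, 528, 420, 337 and 517 CPM, and in placebo-treated APPPS1ΔE9 mice it was 617, 1340, 627, 977 and 1050 CPM. Every APPPS1ΔE9 mouse lay above every WT mouse on this chow. On anle138b the WT mice had 310, 321, 457, 873 and 500 CPM, and the 7 APPPS1ΔE9 mice ranged from 653 to 1390 CPM with a median of 869 CPM. These groups overlapped only through WT mouse 63, the one at 873 CPM. As the mean of both chows, Gfap was 2-fold higher in APPPS1ΔE9 mice, with a log2 fold change of 1 ± 0.19 (SE) and an edgeR adjusted p of 0.0047. Vim had 33.9 to 62.3 CPM in placebo-treated WT mice and 42.8 to 77.2 CPM in placebo-treated APPPS1ΔE9 mice, and its log2 difference over both chows was 0.33 ± 0.16 (SE), edgeR adjusted p = 0.77.

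Of the receptor and its transcription factor, Osmr passed and Stat3 did not. Osmr, which pairs with gp130 to receive oncostatin M, was 9.15, 7.13, 5.84, 8.69 and 7.06 CPM in placebo-treated WT mice and 13, 16.7, 9.79, 9.96 and 12.4 CPM in placebo-treated APPPS1ΔE9 mice, again without overlap. On anle138b it was 8.75, 8.55, 6.61, 12.6 and 5.8 CPM in WT mice, of which 12.6 CPM was mouse 63, and 10.4 to 14.1 CPM with a median of 11.5 CPM in APPPS1ΔE9 mice. Its log2 fold change over both chows was 0.61 ± 0.12 (SE), edgeR adjusted p = 0.01. Stat3 had 41.7 to 72 CPM in placebo-treated WT and 53.4 to 78.5 CPM in placebo-treated APPPS1ΔE9 mice, with a log2 difference over both chows of 0.24 ± 0.10 (SE), edgeR adjusted p = 0.56.

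S100a6 was the third gene that rose. It had 11.3, 11.9, 8.52, 10.4 and 9.3 CPM in placebo-treated WT mice and 13.3, 16.8, 10.1, 14.7 and 18.2 CPM in placebo-treated APPPS1ΔE9 mice. Only the APPPS1ΔE9 mouse at 10.1 CPM reached into the WT range. On anle138b it had 8.99, 9.72, 11.8, 14.3 and 10.9 CPM in WT mice and 13.8 to 20 CPM, with a median of 15.8 CPM, in APPPS1ΔE9 mice. Its log2 fold change over both chows was 0.49 ± 0.10 (SE), edgeR adjusted p = 0.011. Cd44 ranged from 2.13 to 8.09 CPM in placebo-treated WT mice and from 3.52 to 8.85 CPM in placebo-treated APPPS1ΔE9 mice, with a log2 difference of 0.10 ± 0.29 (SE) over both chows.

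None of the secreted proteins passed the test. Serpina3n had 53.2, 71.3, 60.8, 59.5 and 65.4 CPM in placebo-treated WT mice and 60.3, 148, 64.7, 111 and 86.2 CPM in placebo-treated APPPS1ΔE9 mice, so 3 of 5 APPPS1ΔE9 mice stood above the WT range and the other 2 within it. On anle138b it was 53.4 to 97.8 CPM in WT and 65.5 to 177 CPM in APPPS1ΔE9 mice. Its log2 difference over both chows was 0.49 ± 0.18 (SE), edgeR adjusted p = 0.4. Timp1 differed by -0.05 ± 0.23 (SE), on counts of 10 to 53 per mouse in this cohort.

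Cp was the only gene whose difference was negative on both chows, at -0.26 ± 0.13 (SE) over both, edgeR adjusted p = 0.77. It ranged from 16.3 to 30.5 CPM in placebo-treated WT and from 11.3 to 20 CPM in placebo-treated APPPS1ΔE9 mice. Cp is also made by choroid plexus, and the 8 choroid plexus markers summed to 43.3 to 314 CPM in the WT mice of this cohort and to 33.7 to 4390 CPM in the APPPS1ΔE9 mice, with 8 of 8 above 0 over both chows (median log2 difference 0.37). The 4390 CPM was mouse 99 alone. No other APPPS1ΔE9 mouse of this cohort was above 292 CPM, which lies within the WT range. The differences of these markers were not recomputed without mouse 99. The part of choroid plexus RNA in the Cp values was not tested.

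Within a single chow no gene of the 9 passed at 10 months. The share of all genes that DESeq2 called is not given here, so its counts below are only a description. On placebo 0 of 9 were called by edgeR, where 0.324% of 16971 genes were, while 5 had an unadjusted p under 0.05 (4 higher and 1 lower, with 4.1% of all genes at that p) and DESeq2 called 2, Gfap and Osmr. Gfap was 1.10 ± 0.23 (SE, log2) higher with an edgeR adjusted p of 0.16 and Osmr 0.70 ± 0.17 with 0.27. Both had values without overlap between the groups, as did 1.11% of all genes in the higher direction. Without APPPS1ΔE9 placebo mouse 57 or mouse 87, the lowest Gfap mice of their group, edgeR called Gfap, with adjusted p of 0.096 and 0.098. Leaving out a mouse with low Gfap had to widen the difference, so these calls are no support.

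On anle138b edgeR also called 0 of 9, where 0.723% of 17151 genes were called, with 4 at an unadjusted p under 0.05 (5.78% of all genes) and 2 called by DESeq2, Gfap and S100a6. The share of all genes that DESeq2 called is not given here either. Gfap was 0.89 ± 0.26 (SE, log2) higher, edgeR adjusted p = 0.4. Without WT mouse 63 edgeR called 3 of the 9, Gfap at 1.21 ± 0.21 (SE, adjusted p = 0.037), Osmr at 0.70 ± 0.13 (adjusted p = 0.041) and S100a6 at 0.59 ± 0.11 (adjusted p = 0.054), where 0.533% of 17268 genes were called. Mouse 63 was the highest mouse of its group in these 3 genes, so leaving it out had to widen their differences. The calls without it are therefore no support. The mean over both chows kept the same 3 genes called without mouse 63, with 1.16 ± 0.17 (SE, log2) for Gfap. With Y-linked expression as a covariate it also called 3 genes, with Gfap at 1.17 (edgeR adjusted p = 0.0046). The share of all genes called with this covariate is not given here. However, Xist was high in 6 of 10 WT and 1 of 12 APPPS1ΔE9 mice of this cohort.

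**Figure D1:**
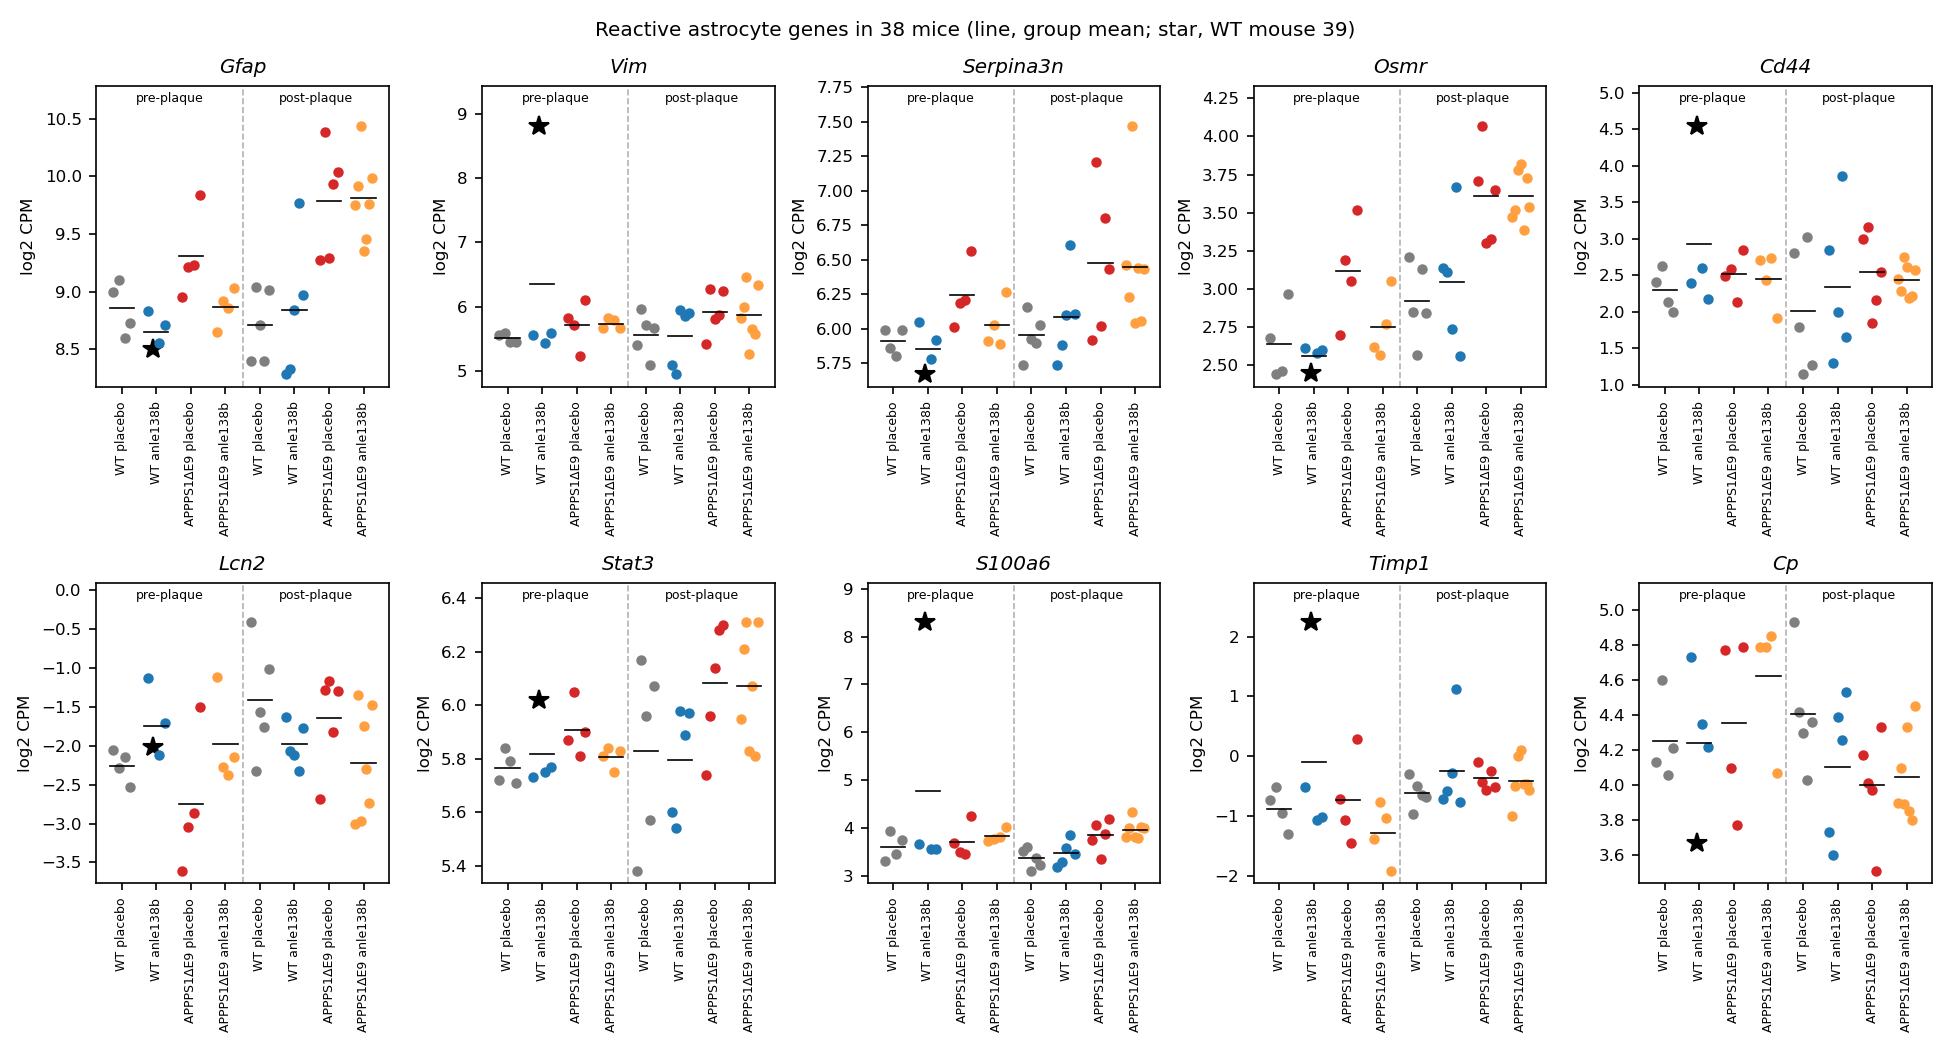
Level of each of the 10 genes in each of 38 mice (y axis, log2 CPM with a prior count of 2), by group on the x axis, with a line at the group mean and a star for WT mouse 39. At 10 months the APPPS1ΔE9 groups of Gfap and Osmr sit above the WT groups apart from WT mouse 63, and the star stands far above its group for S100a6, Vim, Timp1 and Cd44 but not for Gfap, Serpina3n, Osmr or Cp.

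Microglial genes were higher in the same comparison. Over both chows 8 of 10 microglia markers and 10 of 11 plaque-associated microglia genes were called higher at 10 months. Their median log2 fold changes were 0.44 and 1.35. Of all 17668 genes 1.32% were called higher there. Cst7, an inhibitor of cathepsins, rose by a log2 fold change of 6.24 ± 0.31 (SE), edgeR adjusted p = 4.1e-11. The summed microglia markers were 390 to 510 CPM in the 10-month WT mice and 516 to 843 CPM in the APPPS1ΔE9 mice, without overlap. Summed markers of resting astrocytes were 7900 to 8630 CPM in WT and 7680 to 8900 CPM in APPPS1ΔE9 mice, with 0 of 15 called by edgeR, 2 at an unadjusted p under 0.05 and a median of -0.01. The part of microglia in the values of Gfap, Osmr and S100a6 was not tested.

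The other lists of the reactive state and of its signalling had a smaller share of genes called than the 10 genes. Of all genes in this comparison 1.43% were called and 6.84% had an unadjusted p under 0.05. Of 13 further pan-reactive genes tested over both chows at 10 months, 2 were called, the complement component C4b at a log2 fold change of 0.78 ± 0.13 (SE, edgeR adjusted p = 0.00077) and the asparaginase Aspg at 0.73 ± 0.15 (adjusted p = 0.008). Of 11 genes of the A1 set, described for neuroinflammation, none was called, but 5 had an unadjusted p under 0.05, against 6.84% of all genes. Of 11 genes of the A2 set, described for ischemia, 1 was called, the lipopolysaccharide co-receptor Cd14 at 0.93 ± 0.16 (SE, edgeR adjusted p = 0.0012), a gene that microglia also express.

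Along the pathway upstream of Stat3, edgeR called 0 of 4 gp130 ligands tested and 0 of 8 gp130 receptors and kinases, with 0 of both at an unadjusted p under 0.05. Of 11 targets and inhibitors of STAT3 none was called and 2 had an unadjusted p under 0.05, with a median log2 difference of 0.20. Of the relatives of S100a6, 0 of 9 S100 genes tested were called, with 1 at an unadjusted p under 0.05. Around Timp1, 1 of 11 protease and protease inhibitor genes was called, the urokinase Plau at 0.87 ± 0.13 (SE, edgeR adjusted p = 0.00047). Around Cp, 1 of 8 iron-handling genes was called, the heme oxygenase Hmox1 at 0.42 ± 0.11 (SE, edgeR adjusted p = 0.086).

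**Figure D2:**
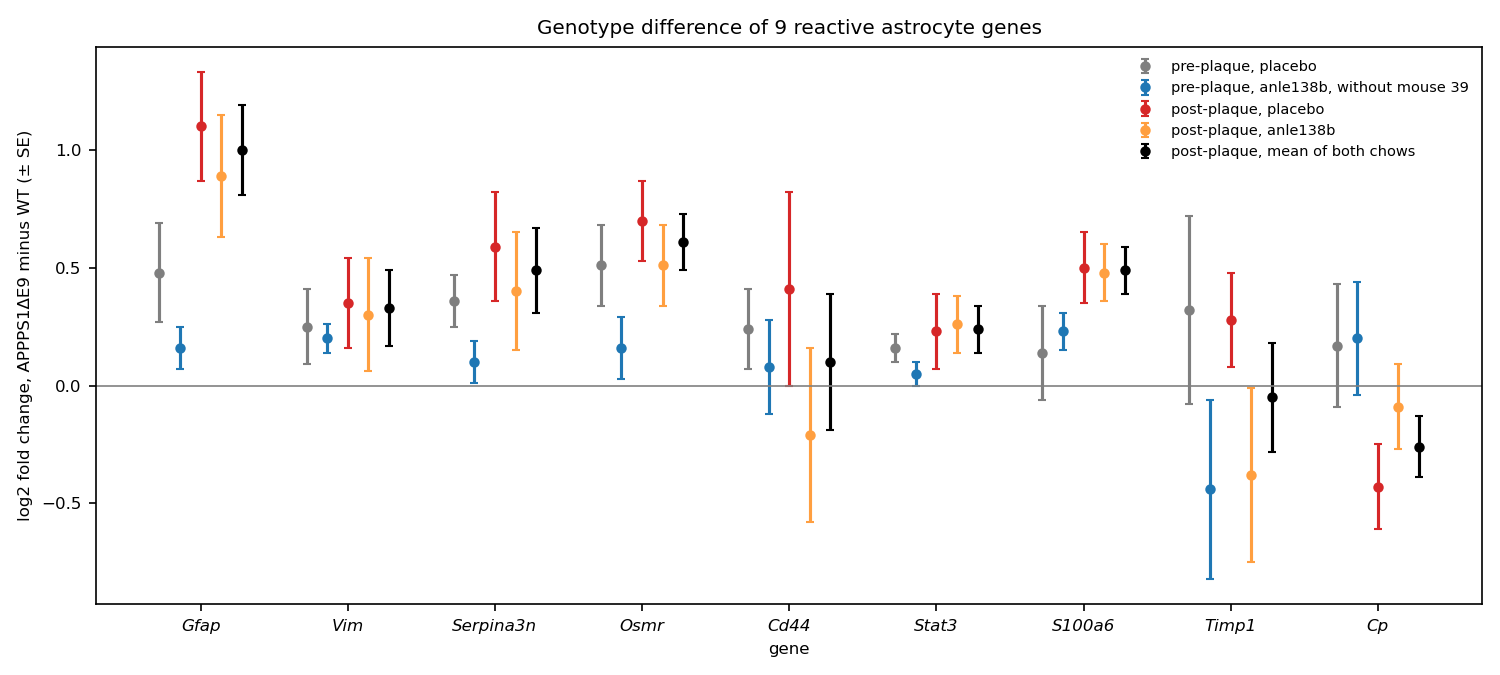
Log2 fold change of APPPS1ΔE9 minus WT mice (y axis, points with ± SE) of the 9 genes tested (x axis), with a color for each comparison by cohort (pre-plaque, 6 months; post-plaque, 10 months) and chow. Mouse 39 is left out of the 6-month anle138b points, which lie between -0.44 and 0.23, and Gfap, Osmr and S100a6 lie above 0 in all 10-month comparisons.

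On placebo at 6 months edgeR called 0 of 9 genes, where 0.0715% of 16774 genes were called, and DESeq2 called 0, while 3 genes had an unadjusted p under 0.05, as did 11.1% of all genes. All 9 log2 differences were above 0, as were 50.8% over all genes, with a median of 0.25. Serpina3n was 63.5, 57.8, 55.6 and 63.5 CPM in WT mice and 64.3, 73, 73.9 and 94.2 CPM in APPPS1ΔE9 mice, with every APPPS1ΔE9 mouse above the highest WT mouse, as for 1.87% of all genes. Its log2 difference was 0.36 ± 0.11 (SE), edgeR adjusted p = 0.36.

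Osmr at 6 months on placebo was 6.34, 5.33, 5.44 and 7.75 CPM in WT and 6.42, 9.06, 8.19 and 11.4 CPM in APPPS1ΔE9 mice, a log2 difference of 0.51 ± 0.17 (SE), edgeR adjusted p = 0.37. Gfap was 514, 547, 387 and 424 CPM in WT and 493, 591, 599 and 914 CPM in APPPS1ΔE9 mice, a log2 difference of 0.48 ± 0.21 (SE), edgeR adjusted p = 0.46. The value of 914 CPM was mouse 75, which was the highest of its 4 mice in 9 of the 10 genes, as in 26.1% of all genes. The groups overlapped for both Osmr and Gfap.

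The 6-month placebo result turned on single mice in both directions. Without APPPS1ΔE9 mouse 17, edgeR called 2 of 9 genes, Serpina3n with an adjusted p of 0.065 and Osmr with 0.095, where 1.21% of 16930 genes were called. Mouse 17 was the lowest of its group in both genes, so leaving it out had to widen the differences. These calls are therefore no support. Without mouse 75 the mean of the 10 genes differed by 0 on the log2 scale, against 0.17 with it. Mouse 75 had summed microglia markers of 722 CPM, against 510 to 600 CPM in the other 3 mice of its group, and the part of microglia in its values was not tested. With all mice kept, 4 of 11 plaque-associated microglia genes were called on placebo at 6 months, where 0.0715% of 16774 genes were called.

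On anle138b at 6 months edgeR called 0 of 9, where 0.047% of 17033 genes were called, DESeq2 called 0, and 1 gene, Gfap, had an unadjusted p under 0.05, as did 5.64% of all genes. The largest values belonged to S100a6 at -2.67 ± 1.36 (SE, log2), Timp1 at -2.07 ± 0.99, Vim at -1.49 ± 0.93 and Cd44 at -0.84 ± 0.63, each with an edgeR adjusted p of at least 0.84. These values rested on WT mouse 39, described below. Without it S100a6 was 0.23 ± 0.08 (SE, edgeR adjusted p = 0.86), Vim 0.20 ± 0.06 (adjusted p = 0.77), Cd44 0.08 ± 0.20 and Timp1 -0.44 ± 0.38.

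Over both chows at 6 months edgeR called 0 of 9, where 0.218% of 17404 genes were called, DESeq2 called 0, and 3 genes had an unadjusted p under 0.05, as did 10.7% of all genes. They were Serpina3n at 0.25 ± 0.08 (SE, log2, edgeR adjusted p = 0.29), Osmr at 0.34 ± 0.11 (adjusted p = 0.3) and Gfap at 0.34 ± 0.12 (adjusted p = 0.37).

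The difference between the cohorts was tested directly. On placebo the genotype effect on Gfap was 0.62 ± 0.33 (SE, log2) larger at 10 months than at 6 months, edgeR adjusted p = 0.83, and edgeR called 0 of 9 genes, where 0% of 17681 genes were called, with 0 of the 9 at an unadjusted p under 0.05 (6.16% of all genes) and 0 called by DESeq2. On anle138b it was 0.70 ± 0.34 larger (edgeR adjusted p = 0.82), with 0 of 9 called by edgeR or DESeq2, where edgeR called 0.028% of 17875 genes. There 2 genes had an unadjusted p under 0.05 (5.84% of all genes), S100a6 at 3.14 ± 1.04 and Vim at 1.80 ± 0.77, which were 0.25 and 0.11 without WT mouse 39. The 3 genes called at 10 months were therefore not shown to differ more between genotypes at 10 than at 6 months.

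The second question was whether anle138b changed these genes. In 10-month APPPS1ΔE9 mice Gfap differed by 0.00 ± 0.22 (SE, log2) between the chows, and the 9 genes lay between -0.17 and 0.10. edgeR called 0 of 9, where 0% of 17110 genes were called, with 0 at an unadjusted p under 0.05 (1.48% of all genes) and 0 called by DESeq2. The test of whether the genotype difference depended on the chow at 10 months gave -0.21 ± 0.37 (SE, log2) for Gfap, edgeR adjusted p = 0.99, and 0.11 without mouse 63. edgeR and DESeq2 called 0 of 9 in it, where edgeR called 0% of 17668 genes, with 0 of the 9 at an unadjusted p under 0.05 (2.3% of all genes).

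In 6-month APPPS1ΔE9 mice Gfap was 493, 591, 599 and 914 CPM on placebo and 402, 484, 464 and 521 CPM on anle138b, a log2 difference of -0.49 ± 0.18 (SE), edgeR adjusted p = 0.35. Osmr was 6.42, 9.06, 8.19 and 11.4 CPM on placebo and 6.07, 5.85, 6.73 and 8.18 CPM on anle138b, a log2 difference of -0.40 ± 0.16 (SE), edgeR adjusted p = 0.35. The groups overlapped for both genes. edgeR called 0 of 9, where 0.0529% of 17009 genes were called, with 3 at an unadjusted p under 0.05 (Gfap, Osmr and Stat3, all lower), as for 13.1% of all genes, and 0 called by DESeq2. The placebo libraries were all from lane 5 and the anle138b libraries all from lane 6, so chow and lane cannot be told apart there. The dependence of the genotype difference on the chow at 6 months was -0.28 ± 0.24 (SE, log2) for Gfap, edgeR adjusted p = 0.74, with 0 of 9 called by edgeR or DESeq2, 0% of 17404 genes called by edgeR, and 0 of the 9 at an unadjusted p under 0.05 (7.99% of all genes).

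In WT mice at 10 months edgeR called 0 of 9 genes between the chows, where 0% of 16986 genes were called, with 0 at an unadjusted p under 0.05 (1.25% of all genes) and 0 by DESeq2, and values from -0.29 to 0.64 on the log2 scale. In WT mice at 6 months edgeR also called 0 of 9, where 0% of 16766 genes were called, with 0 at an unadjusted p under 0.05 (1.85% of all genes) and 0 by DESeq2. S100a6 was 2.88 ± 1.39 (SE, log2) higher on anle138b there, Vim 1.72 ± 0.94, Timp1 1.64 ± 0.96 and Cd44 1.01 ± 0.62. Without mouse 39 these were -0.02 ± 0.13, 0.03 ± 0.07, 0.02 ± 0.34 and 0.09 ± 0.17.

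**Figure D3:**
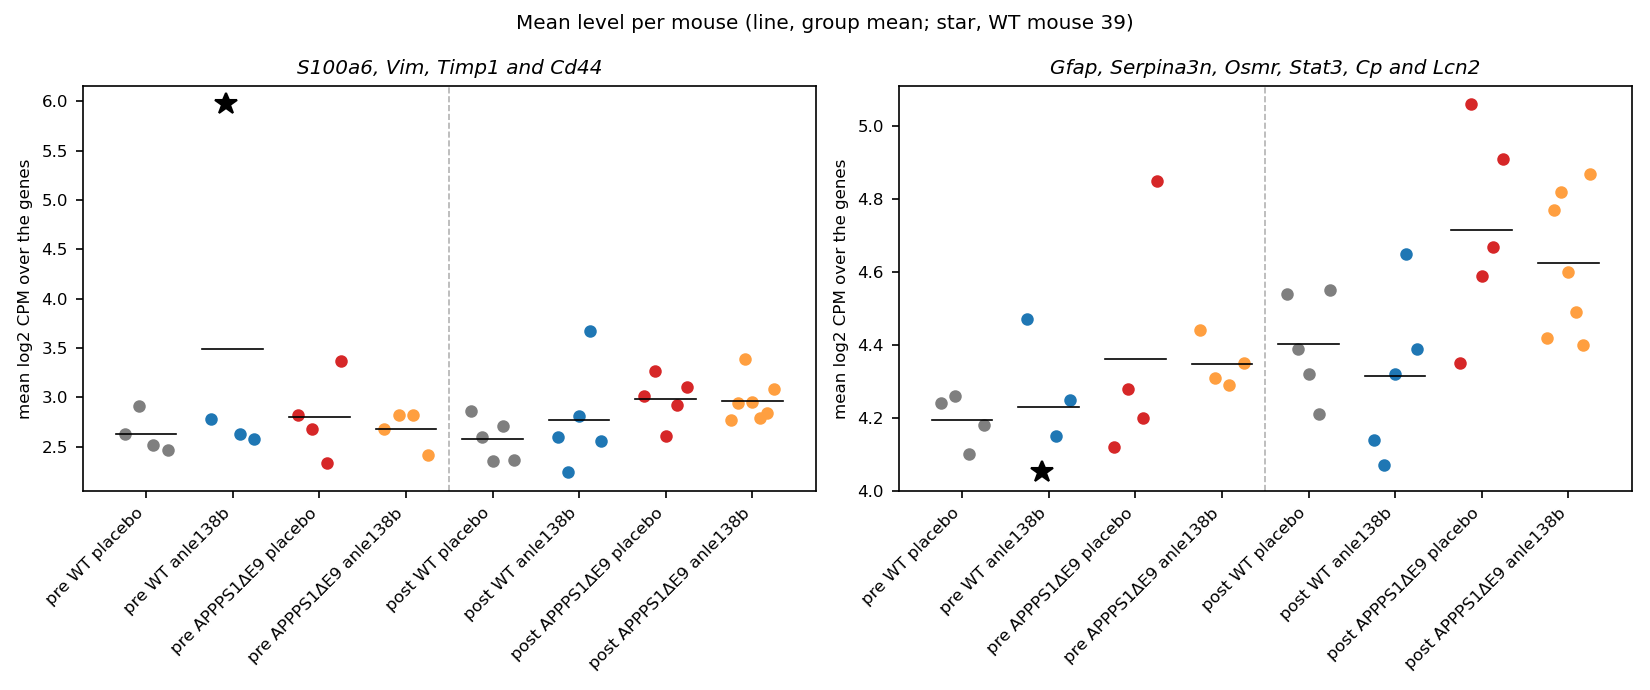
Mean log2 CPM in each mouse (y axis) over S100a6, Vim, Timp1 and Cd44 on the left and over the other 6 genes on the right, by group on the x axis (pre, 6 months; post, 10 months), with a line at the group mean and a star for WT mouse 39. Mouse 39 is at 5.97 over the 4 genes, above all other mice, and at 4.05 over the other 6 genes, below the other 3 mice of its group. The 4 genes were picked because mouse 39 is high in them, so its place on the left restates that choice.

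Mouse 39 belongs to the 6-month group of WT mice on anle138b, and no test across mice applies to a single animal. Over the 10 genes its mean log2 CPM was 4.82, against 3.54 to 3.79 in mice 33, 41 and 83 of the same group. The difference was carried by 4 genes. S100a6 was 314 CPM in mouse 39 (5703 counts) and 12.6, 11.7 and 11.7 CPM in the other 3, which is 26.1 times their mean and 15.7 times the highest of all 37 other mice. Vim was 448 CPM against 47.1, 43.5 and 48.2 CPM, which is 9.69 times the mean of the other 3. Timp1 was 4.63 CPM (84 counts) against 0.622, 0.394 and 0.413 CPM, and Cd44 was 23.4 CPM against 5.19, 5.96 and 4.43 CPM. All 4 were at least 2-fold above each of the other 3 mice, as were 2.23% of 18232 genes, and all 4 were the highest of the 38 mice.

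Gfap and the other 5 genes did not share this. Gfap was 361 CPM in mouse 39, against 454, 375 and 419 CPM, and ranked 34 of 38 from the top. Serpina3n was 51 CPM, the lowest of all 38 mice, against 66.3, 54.7 and 60.3 CPM. Osmr at 5.4 CPM and Cp at 12.7 CPM were also below each of the other 3 mice, as were 38% of all genes. Stat3 at 65 CPM was 1.21 times the mean of the others, above each of the 3 as were 23.1% of all genes, and ranked 11 of 38, and Lcn2 at 0.165 CPM was within their range. Without S100a6, Vim, Timp1 and Cd44, the mean over the other 6 genes was 4.05 in mouse 39 and 4.15 to 4.47 in the others. This split was drawn from the values of mouse 39 itself, so it is a description.

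Compared with each of the other 3 mice, mouse 39 was lower in 14 of 15 resting astrocyte genes, where 38% of all genes were lower. Their sum was 7930 CPM against 9120 to 9300 CPM, and Sox9 at 26.7 CPM was the exception above the others. It was lower in 10 of 10 microglia markers (415 CPM in sum against 475 to 500 CPM), 7 of 7 oligodendrocyte markers (4890 CPM against 5690 to 6560 CPM) and 8 of 10 meningeal fibroblast markers (382 CPM against 296 to 631 CPM). The share was nearer to that of all genes for neurons, at 4 of 9 (11200 CPM against 11900 to 12800 CPM), for endothelium, at 4 of 10, and for pericytes and smooth muscle, at 4 of 8. None of 8 choroid plexus markers was lower or higher than in each of the other 3 (6760 CPM against 264 to 7940 CPM). Of 10 neutrophil markers and 9 monocyte and lymphocyte markers, 0 were above the other 3 mice.

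Of 6 genes of dividing cells, 3 were at least 2-fold above each of the other 3 mice. Of all genes that passed the filter on low counts 2.23% were. The list genes were not filtered, so the shares are not of like genes. Top2a, the topoisomerase that untangles replicated DNA, was 62.2 CPM against at most 1.33 CPM in the other 3 mice. The mitotic kinases Cdk1, at 5.34 CPM against at most 0.69 CPM, and Aurkb, at 3.52 CPM against at most 0.113 CPM, were the others. Aurkb had at most 14 counts in any other mouse of the series. The proliferation marker Mki67 at 3.63 CPM was within the range of the other mice, whose highest was 3.82 CPM, and the cyclin Ccnb1 had 3 counts in mouse 39.

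Among genes near the 10 in function, some genes of several lists stood with the 4. Of all genes that passed the filter 2.23% were at least 2-fold above each of the other 3 mice, while the list genes were not filtered. Of 12 A2 genes 3 were at least 2-fold above each of the other 3 mice and 5 were below each of them by any amount, with a median log2 difference of -0.08 from the mean of the 3, against -0.05 over all genes. The 3 were the pentraxin Ptx3 at 9.97 CPM (at most 0.539 in the other 3), S100a10 at 55.3 CPM (at most 17.9) and Clcf1 at 3.63 CPM (at most 1.62). Of 8 ligands of gp130, with a median of 0.79, 3 were 2-fold above, Il11 at 2.2 CPM (at most 0.443), Lif at 3.47 CPM (at most 1.45) and the same Clcf1, while 0 of 8 gp130 receptors and kinases were. Of 13 protease and protease inhibitor genes 3 were, with a median of -0.07. Among them were Mmp14 at 57.8 CPM (at most 19.4) and Plau at 5.78 CPM (at most 2.66). Il11 had at most 18 counts in any other mouse of the series.

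Of 14 further pan-reactive genes 2 were 2-fold above, Cebpb at 5.45 CPM (at most 1.99) and Lgals3 at 7.21 CPM (at most 2.86), and Spp1 was 2-fold below, at 3.14 CPM against at least 11 CPM, with a list median of -0.02. Of 11 STAT3 targets and inhibitors 1 was above, Myc at 16.8 CPM (at most 4.98). Of 12 chemokines and cytokines 2 were, Cxcl1 at 4.57 CPM (at most 0.249) and Il1b at 2.31 CPM (at most 0.263). Of 8 pericyte and smooth muscle genes 1 was, the muscle filament Des at 8.92 CPM (at most 1.77). Cxcl1 and Il1b had at most 9 counts in any other mouse of the series. None of 12 A1 genes was 2-fold above, and 7 were below each of the other 3 by any amount.

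**Figure D4:**
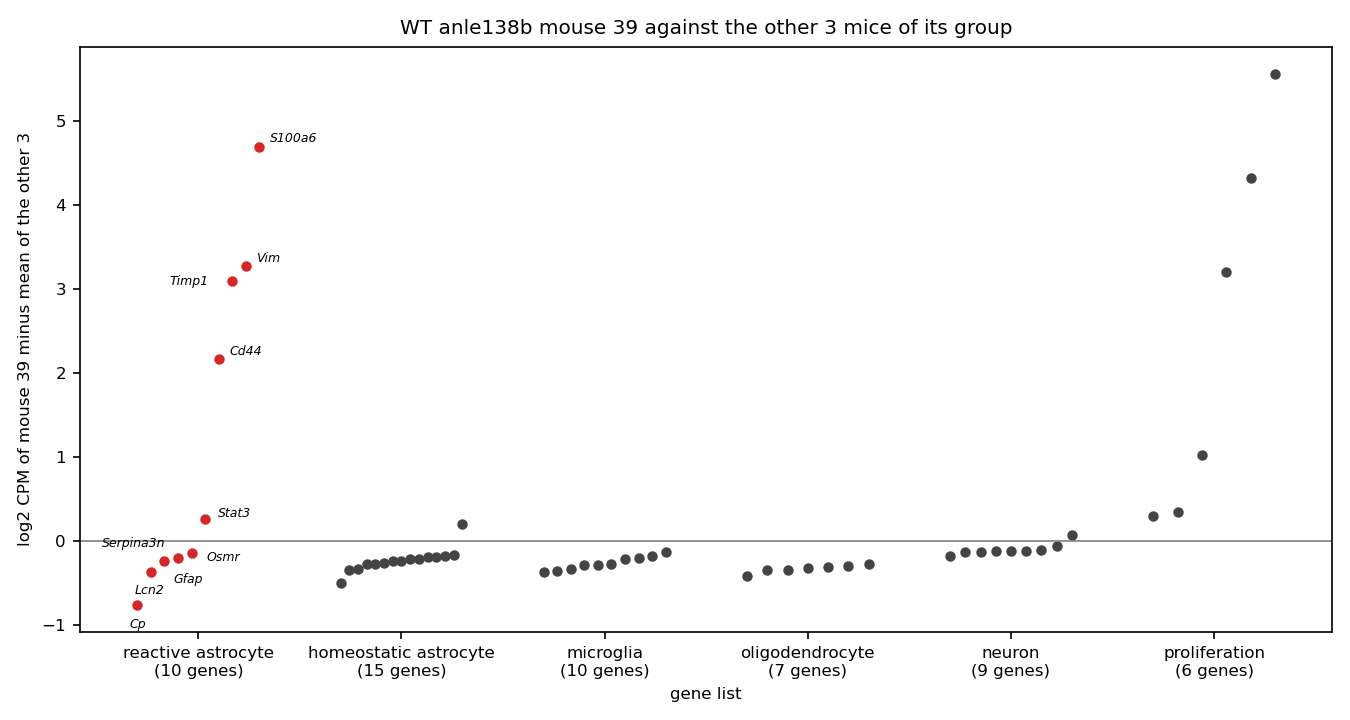
Log2 CPM of mouse 39 minus the mean of the other 3 anle138b-treated WT mice of its cohort (y axis), with a point for each gene of each list on the x axis (homeostatic astrocyte is the list of resting astrocyte markers). S100a6 at 4.70, Vim at 3.28, Timp1 at 3.10 and Cd44 at 2.17 lie far above the other 6 of the 10 genes, which are between -0.76 and 0.27, and 14 of 15 resting astrocyte genes were below each of the other 3 mice.

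Beyond the 10 genes, 407 genes were at least 2-fold above each of the other 3 mice of its group, and the next highest count for any mouse against its own group was 299, in mouse 17. Of the 539 pseudogenes that passed the filter 132 were among the 407, or 24.5%, against 261 of 15195 protein-coding genes, or 1.72%. Pseudogenes took 0.737% of the counts of mouse 39 and 0.101% to 0.134% of those of each of the other 37. Without the filter on low counts, the 10 largest differences among genes of no list with a mean of at least 1 CPM in the group were those of the cardiac actin Actc1, at 70.8 CPM against at most 0.0493 CPM, and of the processed pseudogenes Gm9521, Gm11996, Gm14892, Gm5511, Gm39288, Gm8648, Gm18848, Gm12593 and Gm10307. These 10 reach that mean through mouse 39 alone, with at most 8 counts in any of the other 37 mice, so they had to differ and are not among the 407. Gm9521 had 1826 counts in mouse 39 and 0 in each of the other 3. Reads of a processed pseudogene can come from its near-identical parent gene, so these names are uncertain. Whether the RNA behind the S100a6, Vim, Timp1 and Cd44 values of mouse 39 came from its hippocampus was not tested, and fold changes that include this mouse carry the same limit.

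The depth of mouse 39, 17764531 counts, was within the range of the series, and it had 25420 genes with a count, the most of any mouse. Its lane held 5 other libraries of its cohort, in which S100a6 was 9.75 to 15.1 CPM, Vim 43.6 to 48.5 CPM, Timp1 0.321 to 0.622 CPM and Cd44 3.9 to 6.1 CPM. Among 13772 protein-coding genes with a mean of at least 1 CPM in the group, ranked by the distance to the highest of the other 3 mice, S100a6 was at rank 36, Vim at 61, Timp1 at 82 and Cd44 at 128. That mean includes mouse 39, and Timp1 reached it only through this mouse (1.51 CPM with it, 0.476 CPM in the other 3). The ranks are thus a description.

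Other mice also stood out in some of the 10 genes. WT mouse 63, on anle138b at 10 months, was the highest of its 5 mice in 6 of the 10 genes, while 22.3% of all genes were highest in it. Its Gfap was 873 CPM against 310 to 500 CPM in the other 4, its Cd44 14.4 CPM against 2.38 to 7.14 CPM and its Timp1 2.09 CPM against 0.505 to 0.738 CPM. Cd44 and Timp1, which also set mouse 39 apart, were the 2 genes at least 2-fold above each of the other 4. Its Vim, at 58 CPM, was within the range of the others. Its summed oligodendrocyte markers were 2420 CPM, against 2980 to 7510 CPM in the other 4 mice, and its meningeal fibroblast markers were 329 CPM, against 194 to 262 CPM. Low oligodendrocyte and high meningeal sums were not particular to mouse 63 in this cohort. They were 2860 and 380 CPM in APPPS1ΔE9 mouse 57 and 3230 and 437 CPM in WT mouse 52. The part of these cell types in the values of mouse 63 was not tested.

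APPPS1ΔE9 mouse 93, on anle138b at 10 months, was the highest of its 7 mice in 6 of the 10 genes, as in 15.2% of all genes, with Serpina3n at 177 CPM, where the next mouse had 88 CPM, and S100a6 at 20 CPM. Its summed microglia markers were 843 CPM, the highest of the series, and it was the APPPS1ΔE9 mouse with high Xist. In mice 63, 75 and 93 Gfap and Serpina3n were both the highest of their group, whereas in mouse 39 both were below each of the other 3 mice.

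Across the 37 mice without mouse 39, the 5 protein-coding genes whose log2 CPM ran most like that of Gfap were Itgb2, Cd68, Ikzf1, Cd84 and Csf3r, with Spearman rho of 0.85 to 0.87. These are genes of microglia and other leukocytes. The 37 mice share the split into genotypes and cohorts, so the correlations are a description. Within groups, after subtracting group means, rho was between 0.52 and 0.71 for the same 5 genes. Of the 10 genes Serpina3n was the most like Gfap (rho 0.85, and 0.79 within groups), followed by S100a6 (0.74), Stat3 (0.73), Osmr (0.70) and Vim (0.66), while Timp1 had 0.46, Cd44 0.17 and Cp -0.20. For Osmr rho within groups was 0.14.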

How the data were processed

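Messenger RNA of the hippocampus of 38 mice was sequenced (TruSeq). Reads were aligned with STAR to mm10 and assigned to genes with HTSeq by the authors, and the deposited files hold raw counts of 48709 genes for each mouse. Neither the annotation release nor the strand setting is given in the sources used here. Groups and mouse numbers came from the sample titles.

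Starting from these counts, filterByExpr of edgeR (at least 10 counts, at least 15 in total) selected the genes, TMM set the scale, and glmQLFit (robust) with glmQLFTest gave p-values, which were adjusted after Benjamini-Hochberg and called under 0.1. A fit held the 2 groups compared, or all groups of the comparison for means over chows, interactions and cohort differences. The SE is the size of the log2 fold change over the square root of the F statistic. CPM use the TMM scale, log2 CPM a prior count of 2, and RPKM the exon length in GENCODE M21 (GRCm38), where 48349 of the 48709 genes were found. R 4.3.3, edgeR 4.0.16 and DESeq2 1.42.0 were used, and the tests were tried on simulated counts. In 75 pairs of mice of a group, chi-square over degrees of freedom was 2.99 to 59.6, above sampling noise.

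The 10 genes and 30 lists (280 symbols, 1 unmatched) were chosen with earlier results of these data known. A gene of the other lists is named if it passed a test given here or if mouse 39 was at least 2-fold above the highest of the other 3 mice of its group, at most 4 per list. Genes of no list are the 10 with the largest such difference and a mean of at least 1 CPM, and genes like Gfap are the 5 with the highest rho. Mki67, Ccnb1, Sox9 and Spp1 were named after their values were seen. The alternatives were DESeq2, RLE scaling, no filter, an adjusted p under 0.05, estimation without the robust option, Y-linked expression as a covariate, the replicate number as a block, all 4 groups in a fit, a prior count of 0.5, a median in place of the mean, and leaving out each gene or mouse. Lane 4 alone and protein-coding genes alone were added after seeing the data. A gene of these lists is not reported here.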

Additional observations from a re-analysis of the deposited data

Results flagged for a closer look

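Each of the 10 genes was examined in each of the 8 groups for a highest or lowest mouse that stands apart by Dixon's criterion at the 95% level. It picked out 11 of 80 cases, and chance alone picks out about 1 in 20 of such groups. Of the 11, 6 were mouse 39, the WT mouse on anle138b at 6 months described above. That mouse was chosen for description because it stands out, so its 6 cases restate that choice and are no test. In mouse 39 S100a6 at 314 CPM was far from the next mouse at 12.6 CPM. Its Vim at 448 CPM stood apart from 48.2 CPM, its Cd44 at 23.4 CPM from 5.96 CPM and its Timp1 at 4.63 CPM from 0.622 CPM. Its Stat3 at 65 CPM was picked out against 54.3 CPM. Its Osmr at 5.4 CPM was picked out as the lowest, against 5.91 CPM.

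The other 5 cases were spread over 4 mice. They are about as many as chance alone picks out, so they are only a description. APPPS1ΔE9 mouse 93, anle138b-treated at 10 months, was picked out for Serpina3n at 177 CPM, with the next mouse at 88 CPM, and for S100a6 at 20 CPM, with the next at 16.2 CPM. WT mouse 63, anle138b-treated at 10 months, was picked out for Timp1 at 2.09 CPM, with the next at 0.738 CPM. In the anle138b-treated APPPS1ΔE9 mice at 6 months, mouse 15 was picked out for Lcn2 at 0.377 CPM (10 counts), with the next at 0.145 CPM (4 counts). In the same group mouse 84 had the lowest Cp at 16.7 CPM, with the next at 27.6 CPM. Its summed choroid plexus markers were 180 CPM, against 6140 to 7540 CPM in the other 3 mice of the group, and their part in its Cp value was not tested.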

How the results depend on the processing

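Of 447 recomputed values in 56 results, leave-one-out fits aside, 424 kept their direction and side of the threshold, 0 reversed, 0 lost a call, 8 gained one and 15 moved. The 3 genes called at 10 months over both chows stayed at 3 in each alternative and without each mouse in turn. The counts of called genes that follow have no share of all genes beside them and are a description. On placebo at 10 months the count of called genes was 0, 2 with DESeq2 and 1 with the replicate block, and 0 to 1 with a mouse left out. On anle138b at 10 months it was 0, 2 with DESeq2 and 4 with Y-linked expression as a covariate (Gfap, Serpina3n, Stat3 and S100a6), and 0 to 3 with a mouse left out. On placebo at 6 months it was 0, and 0 to 2 with a mouse left out (2 without mouse 17). The cause was not tested.

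The replicate numbers are running numbers in the titles. Same-numbered mice deviated from their group means with mean correlations of -0.25 to 0.35, and no comparison had every pair over 0.1, so the numbers do not pair the mice. The replicate block left Gfap at 1.06 (adjusted p = 0.075) on placebo at 10 months and changed no other call on the 9 genes.

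The difference of mouse 39 from its group over the 10 genes was 1.18 (log2 CPM). It was 0.79 without S100a6, 0.95 without Vim, 0.97 without Timp1, 1.33 without Gfap or Osmr, 1.34 without Serpina3n, 1.35 without Lcn2 and 1.4 without Cp, as follows from leaving a gene out. Its 407 genes became 678 with a mean of at least 1 CPM in place of the filter, a mean that includes mouse 39. They became 261 with protein-coding genes alone, a setting added after seeing the data. The 10-month placebo difference of the mean over the 10 genes, 0.35, was 0.04 with the median over genes.

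Values that reversed did so without mouse 39, mouse 63 or mouse 75. Leaving out each mouse gave, for 6-month anle138b, -3.04 to 0.23 for S100a6, -1.8 to 0.2 for Vim, -1.09 to 0.08 for Cd44 and -0.38 to 0.04 for the mean over the 10 genes. It gave -0.02 to 3.25 for S100a6 between chows in 6-month WT mice, -1.45 to 0.18 for S100a6 over both chows at 6 months, 0 to 0.26 for the mean over the 10 genes on placebo at 6 months, and -0.33 to 0.11 for Gfap in the 10-month test of genotype by chow. With 4 to 7 mice a group and Timp1 and Lcn2 at few counts, small differences in these genes were not detectable.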
